A study of Mus musculus with 8 samples.

Results

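The transcripts of the mouse mitochondrial genome (mtDNA), and the nuclear genes that transcribe, replicate, process and regulate it, were examined in RNA-seq of cultured kidney tubular epithelial cells (TECs). Members were the rows whose symbol starts with mt-, together with a fixed set of nuclear symbols. They came to 39 of the 14145 genes in the table, 14 mt- transcripts and 25 nuclear genes. The listed genes mt-Atp8 and Slirp have no row and were not analysed here. The KO group held 4 libraries of primary TECs from mice called Aldh2TEC-KO. The name gives a knockout in TECs of Aldh2, the mitochondrial aldehyde dehydrogenase. The WT group held 4 libraries of primary TECs from mice called Aldh2Ctrl. All cells were untreated and grown in DMEM/F12 medium with fetal bovine serum. Neither the promoter that drives the deletion nor the age of the mice is stated in the labels. Groups follow the sample titles, because the genotype field of KO 2, KO 3 and KO 4 names ALDH3, ALDH4 and ALDH5. The labels do not say that each library came from a separate animal or culture, so the p-values below cover the spread among the 8 libraries only, and part of it may be technical.

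Aldh2 itself was at 0.88, 1.64, 1.20 and 1.26 FPKM (reads per unit of gene length and of library depth) in KO 1 to KO 4, against 31.1, 23.7, 25.5 and 25.2 FPKM in WT 1 to WT 4. It was low in every library labelled KO, with a log2 difference of -3.61 ± 0.17 (SE) and a limma adjusted p of 3.43e-05. Depths recovered from the FPKM steps ran from 17050000 to 18760000 reads or fragments per library. Xist and Y-linked transcripts gave KO 1 and KO 2 as female, and KO 3, KO 4 and all WT libraries as male. Summed markers of tubular epithelium, with 9 of 10 genes measured, ran from 846.1 to 6190.5 FPKM in KO and from 1397.1 to 3017.5 FPKM in WT libraries. Cubn has no row. Summed macrophage and leukocyte markers, 12 of 12 measured and none at 0, ran from 228.7 to 1725.7 FPKM in KO and from 48.3 to 1047.5 FPKM in WT libraries, and all 12 had a higher mean in KO. Fibroblast and pericyte markers, 5 of 8 measured, summed to 25 to 37.9 FPKM in KO and 35.7 to 453.2 FPKM in WT libraries. Endothelial markers, 3 of 7 measured, summed to 1.6 to 3.3 FPKM in KO and 5.1 to 7.2 FPKM in WT libraries.

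As background, mtDNA is a small circle that encodes subunits of respiratory complexes I, III and IV and of ATP synthase, and the ribosomal and transfer RNAs used to translate them. Both strands are read as long polycistronic transcripts by a dedicated RNA polymerase with its own factors, and the products are cut out, polyadenylated and degraded by nuclear-encoded proteins. Kidney tubules rely on oxidative phosphorylation for ion transport, and the tubular epithelium is rich in mitochondria.

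Several mt- transcripts have near-identical copies in the nuclear genome, and their values have to be read with this in view. A run of unprocessed pseudogenes on the minus strand of chromosome 1 (GRCm38, 24611535 to 24616197) repeats the stretch from the end of mt-Co1 to mt-Nd4. The first 120 bases of mt-Co2 (chrM:7013-7132, plus strand) and of its copy Gm28661 (chr1:24615446-24615565, minus strand) are shown because reads from them cannot be assigned to either gene. The first 120 bases of mt-Nd3 (chrM:9459-9578, plus strand) and of its copy Gm28438 (chr1:24613000-24613119, minus strand) follow, with the base that differs in capitals. Sequences are from the GENCODE M21 transcripts of GRCm38.
mt-Co2: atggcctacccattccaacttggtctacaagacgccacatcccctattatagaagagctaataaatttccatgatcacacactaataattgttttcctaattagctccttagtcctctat
Gm28661: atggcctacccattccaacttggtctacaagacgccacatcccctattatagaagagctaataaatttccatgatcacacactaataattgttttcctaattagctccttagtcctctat
mt-Nd3: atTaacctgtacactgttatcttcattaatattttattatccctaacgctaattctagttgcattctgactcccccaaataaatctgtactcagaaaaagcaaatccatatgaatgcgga
Gm28438: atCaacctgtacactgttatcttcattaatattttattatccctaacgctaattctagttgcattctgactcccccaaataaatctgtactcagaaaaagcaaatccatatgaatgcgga
The mt-Co2 pair is identical over these 120 bases and over all 681 bases of the copy. The mt-Nd3 pair differs by T3C, counted from the first base of the transcript.

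The share of 50-base windows that recur exactly in another annotated transcript was 100% for mt-Co2, 99.9% for mt-Co3, 99.5% for mt-Atp6, 98.8% for mt-Nd4l and 98.0% for mt-Nd3. It was 62.2% for mt-Nd4 and 51.1% for mt-Co1. It was 8.19% for mt-Nd2, 7.61% for mt-Nd5 and 1.04% for mt-Rnr2, and 0% for mt-Nd1, mt-Nd6, mt-Cytb and mt-Rnr1. The levels of mRNAs differed between the ends of this range. The 5 mRNAs with few copied windows lay between 217.78 and 2480.56 FPKM in KO and between 905.06 and 2613.88 FPKM in WT libraries. The 5 mRNAs with nearly all windows copied lay between 3.95 and 55.74 FPKM in KO and between 15.74 and 41.1 FPKM in WT libraries. The 2 mRNAs copied in part, mt-Nd4 and mt-Co1, were also high, at 261.82 to 6328.43 FPKM in KO and 715.87 to 9865.12 FPKM in WT libraries. Copies on chromosome 1 were near their mitochondrial partner in some cases and below it in others. Gm10925, identical to mt-Atp6 over 678 bases, was at 10.46 to 37.81 FPKM in KO and 27.24 to 33.92 FPKM in WT libraries. Gm28438, the copy of mt-Nd3, was at 3.51 to 8.66 FPKM in KO and 1.80 to 7.02 FPKM in WT libraries, where mt-Nd3 was at 12.19 to 49.63 FPKM in KO and 24.13 to 41.10 FPKM in WT libraries. Gm28439 and Gm29216, which copy parts of mt-Nd4 and mt-Co1, were at 2.80 to 78.26 FPKM in KO and 12.02 to 41.61 FPKM in WT libraries, far below mt-Nd4 and mt-Co1. For mt-Co2, mt-Co3, mt-Atp6, mt-Nd3 and mt-Nd4l the values are therefore uncertain as levels of the mitochondrial transcript. The ribosomal RNAs were also low, at 40.15 to 252.29 FPKM in KO and 61.64 to 125.29 FPKM in WT libraries, although few or none of their windows are copied.

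**Figure D1:**
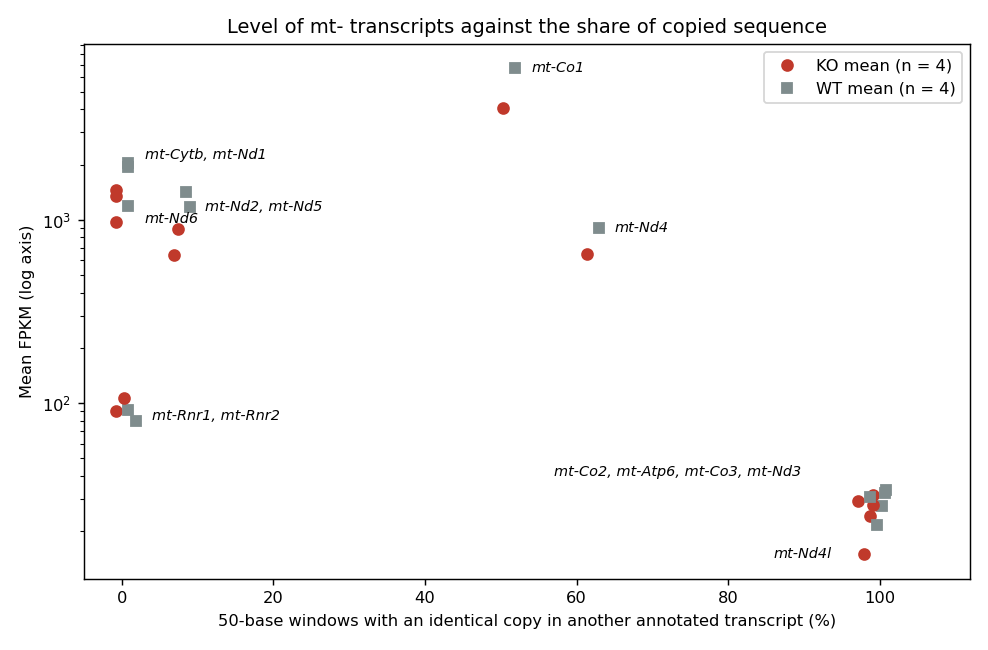
Mean FPKM (log axis) of each mt- transcript in KO (circles) and WT (squares) libraries, n = 4 each, against the percentage of its 50-base windows found exactly in another annotated transcript. KO and WT symbols of a gene are moved slightly apart along the horizontal axis. Transcripts with 98.0% or more copied windows lie far below those with under 10%, and both ribosomal RNAs lie low with few or no copied windows.

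In the FPKM as deposited, the KO libraries held 2 sets of mt- levels. KO 3 and KO 4 lay below every WT library for 14 of 14 mt- transcripts, where 36.3% of all genes did so. KO 1 and KO 2 both lay above every WT library for 3 mt- transcripts (mt-Co2, mt-Co3 and mt-Atp6, all nearly wholly copied, with 12.6% of all genes doing so) and both below every WT library for 0. The mt- transcripts took 5.40%, 5.63%, 1.32% and 1.63% of the summed FPKM in KO 1 to KO 4, against 4.40%, 5.65%, 5.01% and 7.77% in WT 1 to WT 4. KO 1 and KO 2 thus lay within the WT range, and KO 3 and KO 4 below it. The means were 3.49% ± 2.34 in KO and 5.71% ± 1.47 in WT libraries (SD, n = 4 each). As a share of recovered reads, which does not divide by gene length, they were 1.26% ± 0.797 in KO and 1.99% ± 0.57 in WT libraries.

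Across all 8 libraries 0 of 14 mt- transcripts and 0 of 25 machinery genes passed an adjusted p of 0.05 in limma, a linear model fitted across all genes, where 0.0778% of all genes did (11 of 14145). Leaving out KO 2 gave 1139 called genes, and leaving out any other library 1 to 8. At an unadjusted limma p below 0.05 there were 1 mt- transcript and 0 machinery genes, where 19.2% of all genes lay. On the reads recovered from the FPKM, limma-voom also called 0 members. The authors' deposited table gave 0 members an adjusted p below 0.05. The median log2 difference, KO minus WT on the log2(FPKM + 1) scale, was -0.57 over the mt- transcripts, with 1 above and 13 below 0 (55.5% of all genes below). It was -0.17 over the machinery genes, with 7 above (44.5% of all genes) and 18 below 0, and -0.06 over all genes.

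**Figure D2:**
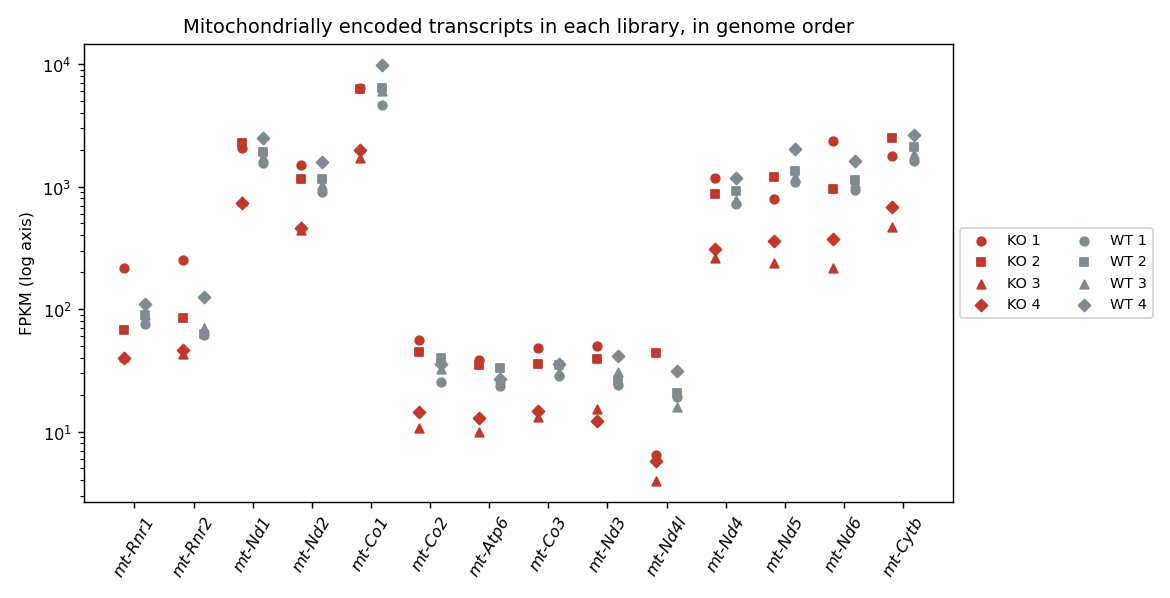
FPKM of each mt- transcript in each library (log axis), in genome order, KO (red) left of WT (grey), with circles, squares, triangles and diamonds for libraries 1 to 4. KO 3 and KO 4 are the lowest libraries for all 14 transcripts, while KO 1 and KO 2 fall among or above the WT libraries for most.

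Among the complex I subunits, mt-Nd1 (GRCm38 chrM 2751 to 3707) was at 2059, 2275, 760 and 737 FPKM in KO 1 to KO 4 and at 1552, 1931, 1758 and 2473 FPKM in WT 1 to WT 4. The groups overlapped, and the log2 difference was -0.58 ± 0.45 (SE; limma adjusted p 0.472). mt-Nd5 (chrM 11742 to 13565) was at 796, 1189, 236 and 358 FPKM in KO 1 to KO 4, against 1093, 1343, 1187 and 2009 FPKM in WT 1 to WT 4. KO 2 lay within the WT range, and the other 3 KO libraries lay below all WT libraries. Its log2 difference was -1.36 ± 0.50 (SE), with an unadjusted limma p of 0.0213 and an adjusted p of 0.206. Without KO 2 it was called lower, at -1.75 (limma adjusted p 0.0458), in a fit that called 1139 of all 14145 genes. In the authors' deposited table mt-Nd5 had a log2 fold change of -1.09 with a p-value of 0.00982 and an adjusted p-value of 0.52.

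mt-Nd6, the one listed mRNA read from the opposite strand (chrM 13552 to 14070, minus), was at 2337, 952, 218 and 371 FPKM in KO 1 to KO 4, against 944, 1130, 1074 and 1606 FPKM in WT 1 to WT 4. KO 1 was the highest of the 8 libraries and KO 3 and KO 4 the lowest. Its annotation overlaps the end of mt-Nd5, and the labels do not say whether reads were counted by strand, so reads of mt-Nd6 and of the opposite strand cannot be told apart. mt-Nd2 (log2 difference -0.57) and mt-Nd4 (-0.72) overlapped between groups in the same way. mt-Nd4l was at 6.40, 43.5, 3.95 and 5.75 FPKM in KO 1 to KO 4, against 19.3, 20.5, 15.7 and 31.3 FPKM in WT 1 to WT 4. KO 2 was above all WT libraries and the other 3 KO libraries below them, on 22 to 231 recovered reads in KO and 83 to 161 in WT libraries. Without KO 2 it was called lower, at -1.81 (limma adjusted p 0.0219), in the same fit that called 1139 of all 14145 genes. mt-Nd3, nearly wholly copied on chromosome 1, had a log2 difference of -0.27.

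mt-Cytb, the complex III subunit (chrM 14145 to 15288), was at 1782, 2481, 471 and 675 FPKM in KO 1 to KO 4, against 1625, 2097, 1827 and 2614 FPKM in WT 1 to WT 4. mt-Co1, the catalytic subunit of complex IV (chrM 5328 to 6872), was at 6328, 6215, 1709 and 1980 FPKM in KO 1 to KO 4, against 4597, 6337, 5982 and 9865 FPKM in WT 1 to WT 4. Both showed the same order, with KO 3 and KO 4 lowest and WT 4 highest. The log2 differences were -0.88 for mt-Cytb and -0.92 for mt-Co1 (limma adjusted p 0.369 for mt-Co1). mt-Co2, mt-Co3 and mt-Atp6, whose windows are nearly all copied, had log2 differences of -0.38, -0.40 and -0.39.

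The ribosomal RNAs did not run with the mRNAs in every library. mt-Rnr1, the small-subunit rRNA (chrM 70 to 1024), was at 214.5, 68.0, 40.4 and 40.2 FPKM in KO 1 to KO 4, against 75.9, 89.0, 88.7 and 110.3 FPKM in WT 1 to WT 4. mt-Rnr2, the large-subunit rRNA (chrM 1094 to 2675), was at 252.3, 84.9, 43.2 and 46.2 FPKM in KO 1 to KO 4, against 61.6, 62.6, 70.7 and 125.3 FPKM in WT 1 to WT 4. KO 1 was the highest library for both. Their log2 differences were -0.36 ± 0.47 (SE) for mt-Rnr1 and 0.08 for mt-Rnr2, the only mt- transcript with a difference above 0.

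Ratios within a library remove whatever scales all mt- transcripts alike. The ratio of mt-Nd5 to mt-Nd1 was 0.387, 0.522, 0.310 and 0.485 in KO 1 to KO 4, against 0.704, 0.696, 0.675 and 0.813 in WT 1 to WT 4. Every KO library lay below every WT library, female and male KO libraries alike, with means of 0.426 ± 0.0962 in KO and 0.722 ± 0.0617 in WT libraries (SD, n = 4 each). It was the only 1 of 10 ratios computed whose groups did not overlap, and it was picked out after its values were seen. A ratio does not remove a trend on length, and mt-Nd5 has 1824 bases where mt-Nd1 has 957. Across 11876 genes, Pearson's r between log2 length and a library's difference from the WT mean was -0.27, -0.04, -0.38 and -0.34 in KO 1 to KO 4. It was -0.22 to 0.09 in WT libraries. The part of length in this ratio was not tested. The ratio of mt-Nd2 to mt-Nd1 was 0.612 ± 0.0917 in KO and 0.603 ± 0.0288 in WT libraries (SD, n = 4 each), a difference smaller than the spread between libraries. The ratio of mt-Nd6 to mt-Nd5 was 2.94 in KO 1 and 0.801 to 1.04 in KO 2 to KO 4, against 0.799 to 0.905 in WT libraries. The ratio of mt-Rnr1 to mt-Nd1 was 0.104, 0.0299, 0.0531 and 0.0545 in KO 1 to KO 4, against 0.0446 to 0.0505 in WT libraries. A ratio shows that 2 transcripts changed unequally and not which of them changed.

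**Figure D3:**
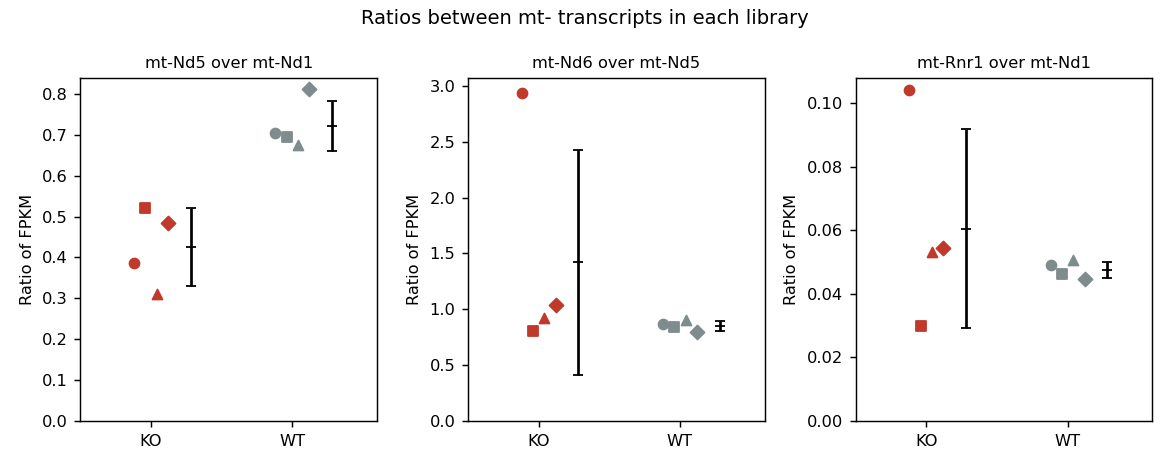
Ratio of FPKM between pairs of mt- transcripts in each library, KO (red) left of WT (grey), with circles, squares, triangles and diamonds for libraries 1 to 4 and bars for the mean ± SD (n = 4 each). For mt-Nd5 over mt-Nd1 the KO libraries lie between 0.31 and 0.522 and the WT libraries between 0.675 and 0.813, and KO 1 stands apart at 2.94 for mt-Nd6 over mt-Nd5.

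Of the genes that transcribe mtDNA, 2 of 7 had a log2 difference above 0 and the median was -0.09, or 0.14 without KO 3 and KO 4 and 0.01 without KO 3. With the trend on length and GC removed, that median was -0.01. Tfam, which coats mtDNA and bends its promoters, was at 9.31, 8.15, 3.58 and 4.68 FPKM in KO 1 to KO 4, against 6.59, 7.18, 6.85 and 7.68 FPKM in WT 1 to WT 4. KO 1 and KO 2 lay above all WT libraries and KO 3 and KO 4 below them. Tfb2m, which melts the promoter for the polymerase, was at 10.1, 11.7, 4.01 and 6.39 FPKM in KO 1 to KO 4, against 10.4, 10.5, 10.8 and 11.2 FPKM in WT 1 to WT 4. Its WT values were close together, and only KO 3 and KO 4 were far from them. Polrmt, the polymerase, ran the other way at 5.70, 9.56, 12.5 and 12.8 FPKM in KO 1 to KO 4, against 8.65, 11.2, 10.0 and 12.1 FPKM in WT 1 to WT 4. The log2 differences were -0.20 for Tfam, -0.47 for Tfb2m and -0.09 for Polrmt. Tefm, the elongation factor, was at -0.05, and Tfb1m, which methylates the small-subunit rRNA, was at 0.00. Mterf3 and Mterf4, members of the MTERF family that act in mitochondrial transcription and ribosome assembly, were at -0.22 and 0.13.

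The promoters of Tfam (chr10:71237995-71238294, minus strand) and Polrmt (chr10:79746532-79746831, minus strand) are shown because these partners in transcription had opposite patterns over the libraries. The windows run from 250 bases before to 50 bases after the start (RefSeq, GRCm38.p6). Capitals mark a GABP motif (CCGGAAGT) in Tfam and 2 overlapping NRF-1 motifs in Polrmt, both searched on both strands.
Tfam: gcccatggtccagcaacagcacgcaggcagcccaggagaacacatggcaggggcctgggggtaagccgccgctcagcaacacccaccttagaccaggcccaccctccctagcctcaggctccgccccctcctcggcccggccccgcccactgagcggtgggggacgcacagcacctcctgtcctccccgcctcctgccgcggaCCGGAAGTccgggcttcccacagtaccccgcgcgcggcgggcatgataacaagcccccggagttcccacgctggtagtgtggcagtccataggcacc
Polrmt: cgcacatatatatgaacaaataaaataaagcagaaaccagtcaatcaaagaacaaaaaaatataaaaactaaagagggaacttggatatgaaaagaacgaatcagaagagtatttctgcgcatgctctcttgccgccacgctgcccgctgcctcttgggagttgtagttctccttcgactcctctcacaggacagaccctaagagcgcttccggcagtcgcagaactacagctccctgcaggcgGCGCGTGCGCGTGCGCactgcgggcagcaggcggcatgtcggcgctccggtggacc
Of the 23 machinery genes with a window, 5 held the GABP motif (21.7%; Fastkd5, Polg, Tefm, Tfam and Twnk), where 3.89% of 32851 promoters did. The NRF-1 motif was in 2 of them (8.7%; Fastkd3 and Polrmt), where 4.6% of all promoters held it. The ERR motif (TCAAGGTCA) was in 0 of 23 and in 0.423% of all promoters. These shares differ in unit, since members count once per gene (Twnk and Nrf1 have 2 windows each) and the promoters once per window. The promoters are also not limited to the genes measured here. A match is a description of these letters and not a binding site. Genes with the same motif differed in pattern. With the GABP motif, Pearson's r with the log2 summed mt- level was 0.94 for Tfam, 0.67 for Fastkd5 and 0.48 for Tefm. It was -0.39 for Twnk and -0.54 for Polg, which hold the same motif. With the NRF-1 motif it was 0.63 for Fastkd3 and -0.46 for Polrmt. Tfb2m (0.93) and Esrra (-0.93) held none of these motifs. A link between motif and pattern was not tested.

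Of the 4 replication genes, 1 had a log2 difference above 0 and 3 below, and they differed in pattern. Polg, the catalytic subunit of the mtDNA polymerase, was at 3.96, 6.53, 7.71 and 7.18 FPKM in KO 1 to KO 4, against 5.46, 5.82, 6.25 and 6.77 FPKM in WT 1 to WT 4. KO 1 lay below all WT libraries, KO 2 within them, and KO 3 and KO 4 above them. Its accessory subunit Polg2 was at 0.67 to 1.24 FPKM in KO and 0.69 to 1.32 FPKM in WT libraries, and the helicase Twnk at 7.91 to 11.1 FPKM in KO and 9.01 to 11.4 FPKM in WT libraries. These 3 had log2 differences of 0.03, -0.01 and -0.03. Ssbp1, which binds single-stranded mtDNA, ran the other way, at 5.02, 2.63, 1.03 and 1.76 FPKM in KO 1 to KO 4 and 2.87, 2.88, 2.47 and 3.32 FPKM in WT 1 to WT 4. KO 1 lay above the WT range, KO 2 within it, and KO 3 and KO 4 below it.

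Of 9 genes for mitochondrial RNA stability, processing and decay, 3 had a log2 difference above 0, and the median was -0.19. It was 0.05 without KO 3 and KO 4, -0.06 without KO 3 and -0.11 without KO 4 or without WT 4. With the trend on length and GC removed, that median was -0.04. Lrpprc, which binds and stabilises mitochondrial mRNAs, was at 12.8, 10.6, 5.15 and 6.38 FPKM in KO 1 to KO 4, against 9.51, 11.6, 10.5 and 14.0 FPKM in WT 1 to WT 4. Pnpt1, the exonuclease of the mitochondrial RNA degradosome, was at 10.4, 7.63, 2.47 and 3.74 FPKM in KO 1 to KO 4, against 6.54, 7.06, 7.21 and 10.0 FPKM in WT 1 to WT 4. KO 3 and KO 4 were the lowest libraries for both genes, and KO 1 and KO 2 lay near or within the WT range. Supv3l1, the helicase partner of Pnpt1, did not show this, at 7.94 to 9.69 FPKM in KO and 7.27 to 9.36 FPKM in WT libraries. Elac2, which cuts the 3′ ends of transfer RNAs out of the precursor, was at 10.4, 10.3, 13.9 and 12.2 FPKM in KO 1 to KO 4, against 9.85, 9.54, 10.4 and 8.44 FPKM in WT 1 to WT 4. The log2 differences were -0.42 for Lrpprc, -0.44 for Pnpt1 and 0.26 for Elac2.

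The FASTK family, RNA-binding proteins of mitochondria, had 1 member with a log2 difference above 0, Fastk, and 4 below. Fastk, needed for mt-Nd6 mRNA in mouse cells, was at 8.34, 13.4, 18.6 and 17.7 FPKM in KO 1 to KO 4, against 13.2, 12.6, 12.4 and 14.4 FPKM in WT 1 to WT 4. KO 1, where mt-Nd6 was highest, had the lowest Fastk level. Fastkd2, which acts on the large-subunit rRNA, was at 6.57, 4.24, 1.82 and 2.58 FPKM in KO 1 to KO 4, against 3.54, 4.16, 4.03 and 5.28 FPKM in WT 1 to WT 4. With the trend on length and GC removed, both signs turned (Fastk -0.04, Fastkd2 0.14). Fastkd1, Fastkd3 and Fastkd5 were at 1.02 to 3.37 FPKM in KO and 1.95 to 4.92 FPKM in WT libraries. Fastkd3 was below every WT library in KO 1, KO 3 and KO 4, and Fastkd5 in KO 3 alone.

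Among the biogenesis regulators, the median log2 difference over 5 genes was -0.43, and -0.18 without WT 4 or without KO 3. Nrf1, a transcription factor of nuclear mitochondrial genes, was at 2.86, 3.06, 2.46 and 2.60 FPKM in KO 1 to KO 4, against 3.19, 3.21, 3.32 and 3.12 FPKM in WT 1 to WT 4. It was the only 1 of 39 members whose groups did not overlap, where 6.86% of all genes lay lower and 4.76% higher in every KO than in every WT library (11.6% in all), and its log2 difference of -0.17 did not pass (limma adjusted p 0.527). With the trend on length and GC removed, the sign for Nrf1 turned (0.34). Gabpa, the DNA-binding subunit of GABP, was at 8.64, 10.8, 2.14 and 4.85 FPKM in KO 1 to KO 4, against 8.82, 8.15, 6.85 and 12.5 FPKM in WT 1 to WT 4. Esrra, the nuclear receptor ERRα, was at 10.8, 17.2, 38.2 and 28.7 FPKM in KO 1 to KO 4, against 18.1, 15.9, 20.4 and 13 FPKM in WT 1 to WT 4. Gabpa was lowest and Esrra highest in KO 3 and KO 4, with log2 differences of -0.55 for Gabpa and 0.35 for Esrra. The coactivators were low in most libraries and highest in WT 4. Ppargc1a was at 0.36, 1.19, 0.10 and 0.30 FPKM in KO 1 to KO 4, against 0.41, 0.70, 0.33 and 4.50 FPKM in WT 1 to WT 4, on 12 to 140 recovered reads in KO and 39 to 514 in WT libraries. Ppargc1b was at 0.11 to 0.42 FPKM in KO and 0.38 to 1.53 FPKM in WT libraries, on 8 to 30 recovered reads in KO and 26 to 106 in WT libraries.

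**Figure D4:**
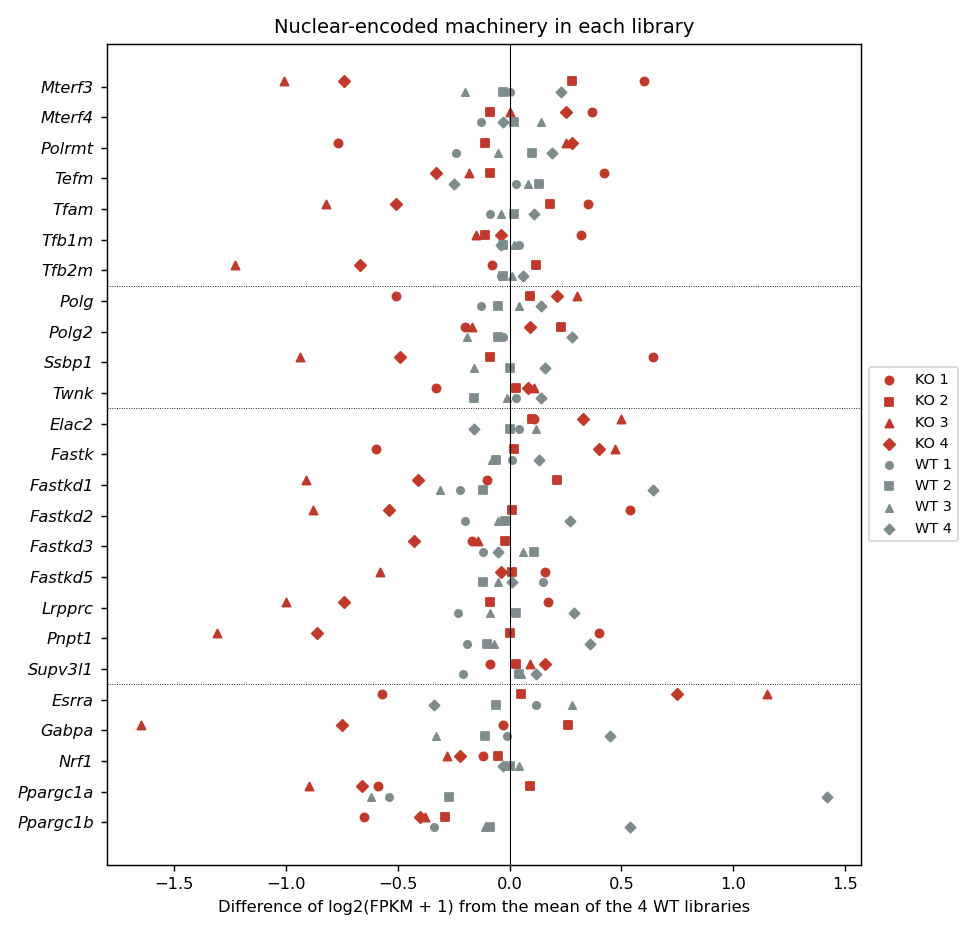
Difference of each machinery gene from its WT mean in each library, on the log2(FPKM + 1) scale, with KO (red) drawn above WT (grey) in each row, genes grouped by role, and circles, squares, triangles and diamonds for libraries 1 to 4. Tfam, Tfb2m, Lrpprc, Pnpt1 and Gabpa are low and Esrra and Elac2 high in KO 3 and KO 4.

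KO 3 and KO 4 both lay below every WT library for 14 of 25 machinery genes (36.3% of all genes) and both above for 5 (24.9% of all genes). In the male libraries alone, 2 KO against 4 WT, 13 of 14 mt- transcripts were lower at a limma adjusted p of 0.05, where 26.7% of all genes were lower. Among these, mt-Nd5 fell by 2.23 (limma adjusted p 0.00387), mt-Co1 fell by 1.81 (adjusted p 0.0217) and mt-Rnr1 fell by 1.14 (adjusted p 0.00351) on the log2 scale. mt-Rnr2, at -0.76, was not called (limma adjusted p 0.0755). Of the machinery, 8 of 25 genes were lower, near the 26.7% of all genes that were. Tfam (-0.66, limma adjusted p 0.00856) and Tfb2m (-0.95, limma adjusted p 0.00559) were among them. Fastk, Elac2 and Esrra were higher, where 17.6% of all genes were, with Esrra at 0.95 (limma adjusted p 0.01). With sex as a covariate, 12 mt- transcripts were lower (21.6% of all genes), and 8 machinery genes were lower and 2 higher (12.6% of all genes higher). All WT libraries are male, so the covariate fit takes its KO minus WT difference from KO 3 and KO 4 alone. KO 1 and KO 2 enter only its spread. It repeats the differences of the male libraries, such as -2.23 for mt-Nd5, and is not a second estimate. Since the male KO libraries are KO 3 and KO 4, sex, these 2 libraries and the levels in them cannot be told apart. Without KO 3 and KO 4 the median log2 difference of the mt- transcripts was 0.28 and that of the machinery 0.04.

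Base composition moved with the libraries too. The mt- mRNAs are 33.0% to 41.1% GC, against a median of 49.7% for all genes. Across the 25 machinery genes, Pearson's r between GC content and a library's difference from the WT mean was -0.70, -0.33, 0.72 and 0.68 in KO 1 to KO 4. Across 11876 genes it was -0.28, 0.02, 0.63 and 0.59 in KO 1 to KO 4 and -0.19 to 0.27 in WT libraries; genes of a library share its depth and preparation and are not replicates. The 619 nuclear genes under 40% GC had a median difference from the WT mean of 0.32, 0.00, -1.17 and -0.75 in KO 1 to KO 4. The mt- transcripts had 0.44, 0.15, -1.47 and -1.34 in KO 1 to KO 4. With the trend on length and GC taken out of each library, the mt- median was -0.40, 0.10, -0.90 and -1.08 in KO 1 to KO 4, against -0.24, -0.02, -0.07 and 0.33 in WT 1 to WT 4. By this median KO 1 lay below every WT library, as KO 3 and KO 4 did, and only KO 2 lay within the WT range. In those values KO 3 and KO 4 lay below every WT library for 12 of 14 mt- transcripts and 5 of 25 machinery genes, where 26.1% of all genes did so. The machinery medians were -0.10 in KO 3 and -0.07 in KO 4.

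**Figure D5:**
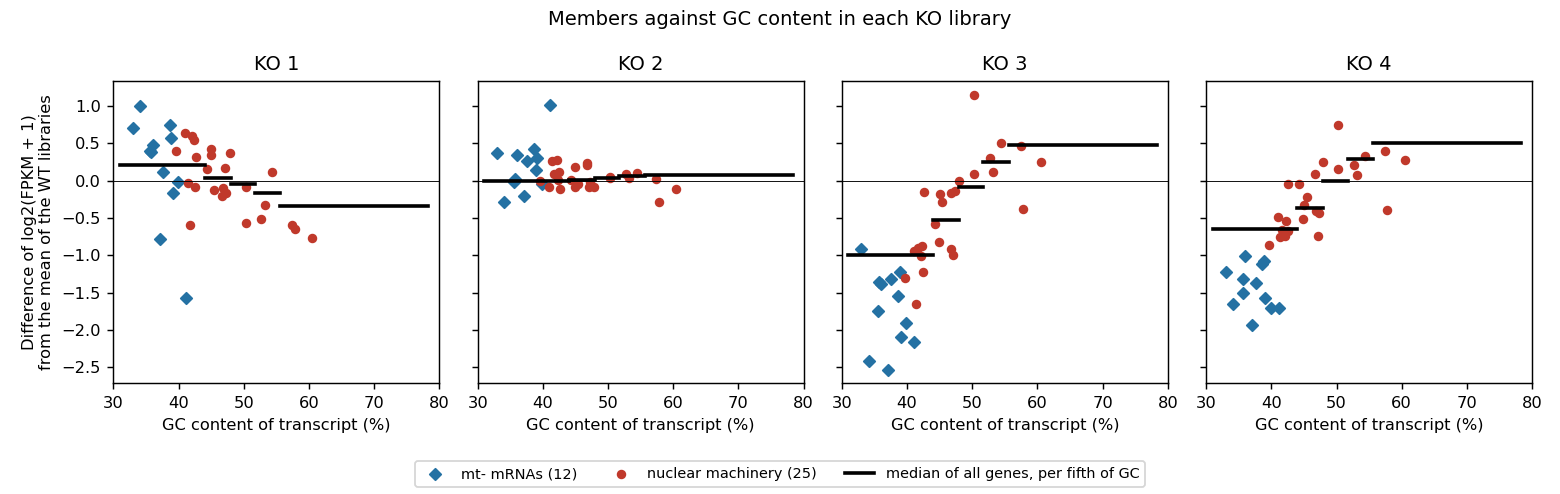
Difference from the WT mean in KO 1 to KO 4 (log2(FPKM + 1) scale) against GC content for the 12 mt- mRNAs and 25 machinery genes, with the medians of all genes in 5 equal classes of GC content as bars. The machinery genes slope upwards with GC in KO 3 and KO 4 (r of 0.72 and 0.68) and downwards in KO 1 (r of -0.70).

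Summed markers of tubular epithelium were 1409.3, 846.1, 6190.5 and 2955.5 FPKM in KO 1 to KO 4, and 1859, 2433.5, 3017.5 and 1397.1 FPKM in WT 1 to WT 4, so they were higher in KO 3 and KO 4 than in KO 1 and KO 2. Summed macrophage and leukocyte markers were 581.5, 1725.7, 228.7 and 1114.9 FPKM in KO 1 to KO 4, and 1047.5, 92.7, 107.0 and 48.3 FPKM in WT 1 to WT 4, so the 2 KO libraries with low mt- levels differed from each other. The part of these cell markers in the results was not tested. In such bulk samples, fewer cells of a type and less RNA per cell cannot be told apart.

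Over the 8 libraries, Lrpprc followed the summed mt- level closely, with Pearson's r of 0.99 on the log2 scale, and Pnpt1 (0.97), Tfam (0.94), Tfb2m (0.93), Gabpa (0.92) and Fastkd2 (0.92) were near it. Esrra and Elac2 ran against it (-0.93 each), as did Fastk (-0.71). Among 6289 nuclear genes whose log2 value averaged 3 or more, those most like the mt- sum were Prkar2a (0.992), Phf10 (0.989), Lrpprc (0.988), Cyb5b (0.986) and Kif2a (0.984). Among those most opposed were Spryd3 (-0.993), Itm2c (-0.992) and Tada3 (-0.991). The 5 most alike have a GC content of 38.6% to 48.3% and these 3 opposed genes one of 55.7% to 57%. These values describe 8 libraries that share the split of KO 3 and KO 4 from the rest.

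The partners of the mt-encoded subunits did not share the mt- median. Of the nuclear complex I subunits, 35 of 36 had a log2 difference above 0 (44.5% of all genes), with a median of 0.56 beside -0.06 over all genes, though 0 passed the limma adjusted p of 0.05. Ndufs8 was at 66.5, 56.0, 81.7 and 90.9 FPKM in KO 1 to KO 4, against 41.0, 40.9, 44.2 and 44.4 FPKM in WT 1 to WT 4, with a log2 difference of 0.75 (limma adjusted p 0.128). Its KO values were all above its WT values, as were those of 4.76% of all genes. Ndufb9 had a log2 difference of 0.90 and Ndufv3 of 0.64. The medians were 0.29 for 9 complex III subunits (9 above 0), 0.29 for 11 of complex IV (10 above 0) and 0.41 for 15 of ATP synthase (13 above 0), again with 0 passing. Without KO 3 and KO 4 these medians were 0.28, 0.16, 0.39 and 0.15 for complexes I, III, IV and ATP synthase. With the trend on length and GC removed they were 0.34, 0.12, 0.21 and 0.22 in the same order, and with scaling to non-mitochondrial FPKM 0.39, 0.11, 0.11 and 0.23. Leaving out 1 library moved the complex III median to 0.52 without KO 1 and 0.44 without KO 2, and the complex IV median to 0.18 without KO 1 and 0.49 without KO 2. The unequal sign of mt- and nuclear subunits was thus seen over all 8 libraries and not without KO 3 and KO 4, where both lay above 0.

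Further genes of mitochondrial gene expression gave 0 calls in each list at a limma adjusted p of 0.05, where 0.0778% of all genes were called. The median was 0.13 over 11 other transcription and nucleoid genes (-0.01 after removing the length and GC trend), with Clpp, the matrix protease subunit, at 0.70 and Lonp1, the protease that degrades Tfam, at 0.44. It was -0.01 over 16 replication and nucleotide-pool genes. Slc25a33, a pyrimidine nucleotide carrier of the inner membrane, was at 4.50 to 6.13 FPKM in KO and 2.57 to 3.26 FPKM in WT libraries (log2 difference 0.68, limma adjusted p 0.124). Its groups did not overlap, and 4.76% of all genes lay higher in every KO library than in every WT library. Lig3, the DNA ligase of mitochondria, was at 4.49 to 6.09 FPKM in KO and 7.14 to 7.98 FPKM in WT libraries (-0.44, limma adjusted p 0.199). The median was 0.05 over 32 RNA processing genes, and -0.03 with that trend removed, with the oligoribonuclease Rexo2 at 0.88, the RNase P subunit Hsd17b10 at 0.66 and the deadenylase Pde12 at -0.53. It was -0.17 over 14 genes listed under translation, not all of them translation factors. That sign turned without KO 3 and KO 4 (0.09) and with the trend removed (0.02), and the median was -0.02 without KO 3. In that list Gfm2, Mief1 and Oxa1l had the lowest p and differences of -0.26, -0.24 and 0.22. Over 17 other biogenesis regulators the median was -0.51, with 14 below 0 (55.5% of all genes below). It was -0.19 without KO 3 and KO 4 and -0.25 with the trend removed. Nrip1, a corepressor of nuclear receptors, was at 4.66, 8.71, 2.50 and 3.17 FPKM in KO 1 to KO 4, against 10.0, 14.4, 11.1 and 12.2 FPKM in WT 1 to WT 4. All KO values were below all WT values, as for 6.86% of all genes, and the log2 difference was -1.27 (limma adjusted p 0.123).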

How the data were processed

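RNA from primary TECs was sequenced in 4 KO and 4 WT libraries, grouped by their titles. The authors deposited FPKM for 14145 genes, together with their own log2 fold change, p-value and adjusted p-value. FastQC, STAR 2.4.1d and DESeq2 with GRCm38 are named, per the submitters' processing notes; the labels name no counter, annotation or row filter. The values were taken as FPKM because, multiplied by GENCODE M21 exon lengths, 95.0% to 95.5% of the values standing for 1 to 200 reads fell within 0.05 of a whole read in each library, which gave depths of 17050000 to 18760000 reads or fragments.

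limma 3.58.1 (R 4.3.3) compared KO with WT on log2(FPKM + 1), fitting all genes and libraries with a variance trend, two-sided, with Benjamini-Hochberg adjustment at 0.05. Adding 1 shrinks the differences of weakly expressed genes. The test was checked on simulated data. Every member was described, with up to 3 genes of lowest p from each further list and the 5 genes most and 5 least correlated with the mt- sum among genes whose log2 value averaged 3 or more; 2 of the least correlated are not reported here. Members and lists were chosen with earlier results of these data known. Alternatives were another pseudocount, a low-value filter, 2 scalings, no variance trend, a replicate block, a sex covariate, male libraries alone, leaving out KO 3 and KO 4 or each library, limma-voom, and removal of the trend on length and GC (lowess, span 0.3). The lists of mRNAs by copied windows were added after seeing the data. Python 3.11.15, pandas 2.3.3, numpy 2.4.6 and matplotlib 3.10.9 were used.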

Additional observations from a re-analysis of the deposited data

Results flagged for a closer look

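Among 78 groups of 4 libraries examined, 5 held a library that stood apart from the other 3 by Dixon's test of its gap over the group's range; chance gives about 1 in 20. mt-Nd4l was at 43.47 FPKM in KO 2, against 3.95 to 6.40 FPKM in the other KO libraries (gap 0.938 of the range). mt-Rnr1 was at 214.51 FPKM in KO 1, where the other KO libraries lay at 40.15 to 68.01 FPKM (0.84). In WT 4, mt-Rnr2 was at 125.29 FPKM, against 61.64 to 70.66 FPKM in the other WT libraries (0.858). WT 4 also had Ppargc1a at 4.50 FPKM, against 0.33 to 0.70 FPKM in the other WT libraries (0.911), and Fastkd1 at 4.92 FPKM, against 2.06 to 2.49 FPKM (0.851).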

How the results depend on the processing

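The number of genes called, 11 with all 8 libraries, was 3 with a pseudocount of 0.1, 20 with scaling to non-mitochondrial FPKM, 4838 with the sex covariate, 6275 in the male libraries alone, 7 with limma-voom and 2 after removing the trend on length and GC; it ran from 1 to 1139 on leaving out each library, with 1139 without KO 2, 8 without WT 4, 3 without KO 3 and 1 without each of the others. Without KO 2, mt-Nd4l (-1.81, limma adjusted p 0.0219) and mt-Nd5 (-1.75, adjusted p 0.0458) were called lower, 2 of 14 mt- transcripts. That fit called 0 of 25 machinery genes and 1139 of all 14145 genes. The mt- median, -0.57 with all libraries, was -1.34 with the sex covariate and in the male libraries alone, 0.28 without KO 3 and KO 4, -0.84 over the 5 mRNAs with few copied windows, and -0.89 to -0.31 on leaving out each library. The machinery median, -0.17 with all libraries, was -0.31 with scaling to non-mitochondrial FPKM, 0.04 without KO 3 and KO 4, -0.03 with the trend removed, and -0.21 to -0.06 on leaving out each library. Scaling to non-mitochondrial FPKM moved the median of all genes by -0.13. The difference in the mt- share, -2.22 percentage points, was -4.23 in the male libraries, -0.196 without KO 3 and KO 4, -0.724 as a share of recovered reads, -1.03 over the 5 mRNAs with few copied windows, and -2.93 to -1.49 on leaving out each library. The cause was not tested.

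The sign of the log2 difference turned round for some members. Without KO 3 and KO 4 these were mt-Cytb 0.07, Esrra -0.26, Gabpa 0.11, mt-Nd4 0.19, Tfb2m 0.02, mt-Nd1 0.19, Fastkd1 0.05, Lrpprc 0.04, mt-Nd2 0.21, Pnpt1 0.20, Fastk -0.29, Polg -0.21, Supv3l1 -0.03, mt-Co3 0.35, mt-Nd6 0.36, mt-Atp6 0.42, Fastkd2 0.27, Tefm 0.16, Polg2 0.01, mt-Rnr1 0.42, Tfam 0.27, Ssbp1 0.27, Fastkd5 0.08, mt-Nd3 0.54, mt-Co2 0.58, Mterf3 0.44. With scaling to non-mitochondrial FPKM they were Mterf4 -0.01, mt-Rnr2 -0.10, Fastk -0.10, Polg -0.13, Supv3l1 -0.12, Tfb1m -0.14. With the sex covariate and in the male libraries alone they were mt-Rnr2 -0.76, Tfb1m -0.09, Twnk 0.10, Polrmt 0.26. With the trend removed they were Fastk -0.04, Supv3l1 -0.09, Nrf1 0.34, Fastkd2 0.14, Polg2 0.12, Ssbp1 0.30, Mterf3 0.07. With median-ratio scaling they were Twnk 0.05, Tefm 0.02, Polg2 0.02, and with limma-voom Tfb1m -0.01. On leaving out each library the ranges of members that turned were mt-Rnr2 -0.46 to 0.38, Fastk -0.06 to 0.30, Polg -0.07 to 0.20, Supv3l1 -0.02 to 0.09, Tfb1m -0.10 to 0.06, Twnk -0.08 to 0.08, Fastkd2 -0.47 to 0.00, Tefm -0.20 to 0.05, Polg2 -0.09 to 0.08, Polrmt -0.21 to 0.14, Tfam -0.38 to 0.01, Ssbp1 -0.51 to 0.02, Fastkd5 -0.20 to 0.04, mt-Nd3 -0.59 to 0.05, mt-Co2 -0.75 to 0.01, Mterf3 -0.49 to 0.05. The cause was not tested for any of them. The filter on low values left 22 of 25 machinery genes.

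With the replicate number as a block, 1 gene was called and no call of a member changed. Same-numbered libraries had correlations of 0.045, -0.208, 0.606 and -0.044 between their deviations from the group means, for numbers 1 to 4. KO 3 and WT 3 thus deviated alike, and the other pairs much less so. Across 11876 genes, WT 3 had the highest r with GC (0.27) and the lowest with log2 length (-0.22) of the WT libraries. KO 3 had the same signs (0.63 and -0.38), as did KO 4 (0.59 and -0.34). What KO 3 and WT 3 share beyond this and the number in their titles was not tested. Ppargc1a, Ppargc1b and Polg2 rest on at most 140 recovered reads in every library except WT 4 for Ppargc1a (514), and for copied mt- transcripts the level itself is uncertain.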
